A study of Homo sapiens with 16 samples.

Results

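The genes described here are 45 genes of the nucleolus, of ribosome assembly and of growth metabolism that are commonly listed as targets of MYC, 45 of the 25726 distinct gene symbols of the count table. They were chosen by symbol, and each had a row in the table. MYC and its relative MYCN are transcription factors that raise the output of the ribosome-making machinery. RNA polymerase I copies the ribosomal RNA genes inside the nucleolus, small nucleolar ribonucleoproteins (snoRNPs) modify the transcript, and assembly factors fold and cleave it into the small and the large ribosomal subunit. In neuroblastoma with amplified MYCN, high MYCN is known to go with large nucleoli and active ribosome production.

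RNA was sequenced from Kelly and LAN-1, human neuroblastoma cell lines that carry extra copies of MYCN. In each line, cells given 2 uM GSK126, which blocks EZH2, the enzyme that places the repressive histone mark of the Polycomb complex PRC2, were set against cells given the solvent DMSO, after 2 days and after 5 days. This gave 8 groups (GSK126 and DMSO, in Kelly and LAN-1, at day 2 and day 5) of 2 libraries each. Each line is a single model of the tumour, and the labels do not say that duplicates were separate cultures, so p-values measure the spread between these libraries.

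Library totals ran from 912095 to 1666190 counts, and levels are given in CPM, counts per 1e6 counts of the scaled library. Of the 45 genes, 43 had enough counts to be tested among 11863 genes. EIF4A1, the RNA helicase of translation initiation, was listed at 0 in all 16 libraries. Its exons overlap the readthrough gene SENP3-EIF4A1 and the small nucleolar RNA genes SNORA48 and SNORD10 on the same strand. PPAN, a large subunit assembly factor, had 2 to 6 counts per library and shares exons with P2RY11 and PPAN-P2RY11. Neither value is read as a level. The 8 adrenergic neuroblastoma markers had counts in both lines, but TH and DBH were near 0 in LAN-1, at 0 to 4.90 CPM. Duplicates varied most in LAN-1 with GSK126 at day 5, at 1.91 times the variance of counting, and in Kelly with DMSO at day 2, at 1.74 times. The other pairs lay between 1.10 and 1.28 times.

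The members were abundant genes. Their median level was 171.8 CPM, above that of 89.2% of tested genes, whose median was 38.4 CPM. Per kilobase of transcript in DMSO, NPM1, the histone chaperone nucleophosmin, stood highest in both lines, at 1146 ± 15.1 CPM per kb in Kelly and 1222 ± 64.7 in LAN-1 (SD over 4 libraries). NCL, the ribosomal RNA-binding protein nucleolin, followed at 536.3 ± 8.29 CPM per kb in Kelly and 635.3 ± 7.53 in LAN-1. The third place went to FBL, the snoRNP methyltransferase fibrillarin, in Kelly (307.7 ± 32.1 CPM per kb) and to NOP56, a core protein of the same particles, in LAN-1 (241.9 ± 7.93). The lowest of the tested members in Kelly were BOP1, a large subunit assembly factor (6.47 ± 1.55 CPM per kb), and the polymerase I subunits POLR1A (7.25 ± 1.73) and POLR1B (8.09 ± 0.886), and these 3 overlapped within their spread. In LAN-1 the lowest were BOP1 (4.50 ± 0.555 CPM per kb), WDR12 of the same large subunit complex (13.8 ± 0.687) and WDR3, a small subunit processome protein (14.1 ± 0.60), and WDR12 and WDR3 overlapped. Each length was that of a single annotated transcript, 8068 bases for WDR12 and 10004 for WDR3, so these ranks depend on the transcript chosen. BOP1 had 8 to 32 counts per library, so its place rests on few counts. NPM1 has 49 numbered pseudogenes, and how reads that fit several genes were counted was not given in the sources used here, so its level is uncertain.

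The promoters of the members were read for CACGTG, the E-box sequence that MYC and MYCN bind with MAX. Windows from 250 bases before to 50 bases after the gene start came from RefSeq on GRCh38.p14 and matched 38 of the 45 members. CACGTG, which reads the same on both strands, was found in windows of 16 of the 38 (42.1%). The share was 8.77% of 27305 genes with RefSeq windows and 10.6% of the 15834 of these in the count table. It was 30.1% of 113 other factors of ribosome production. Members are commonly listed as MYC targets, so their share describes the list and does not test it. The 16 were DDX21, EIF4E, FBL, GAR1, GNL3, LYAR, MYBBP1A, NAT10, NME1, NOP2, ODC1, PES1, PNO1, RRP9, UTP20 and WDR43, with 2 copies each in EIF4E and ODC1. The variant CACGCG, read on both strands and unable to overlap CACGTG, occurred in windows of 11 members (28.9%). It occurred in 13.5% of all genes with windows and in 17.6% of those in the count table. Among the 113 other factors of ribosome production its share was higher than in the members, at 34.5%. A match describes the letters in the window and shows no binding. Printed below, 5′ to 3′ with CACGTG in capitals, are the windows of 4 members that carry the E-box and fell in a comparison described further on, and of NPM1, which fell as well and carries none. All lie on the plus strand, GNL3 at chr3:52685782-52686081, NAT10 at chr11:34105379-34105678, DDX21 at chr10:68956397-68956696, NME1 at chr17:51153309-51153608 and NPM1 at chr5:171387599-171387898. GNL3, DDX21 and NPM1 each have a further window without CACGTG.
GNL3: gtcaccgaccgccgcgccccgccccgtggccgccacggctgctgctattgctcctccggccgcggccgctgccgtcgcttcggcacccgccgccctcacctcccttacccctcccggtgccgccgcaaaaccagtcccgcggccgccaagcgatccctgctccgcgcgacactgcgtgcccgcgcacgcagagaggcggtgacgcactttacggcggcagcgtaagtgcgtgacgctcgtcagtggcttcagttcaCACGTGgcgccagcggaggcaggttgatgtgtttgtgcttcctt
NAT10: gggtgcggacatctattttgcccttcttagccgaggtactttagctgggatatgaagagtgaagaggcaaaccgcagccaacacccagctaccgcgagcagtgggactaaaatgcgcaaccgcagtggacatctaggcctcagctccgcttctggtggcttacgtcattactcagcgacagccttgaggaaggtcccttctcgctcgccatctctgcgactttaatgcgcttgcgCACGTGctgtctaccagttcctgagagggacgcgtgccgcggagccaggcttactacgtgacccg
DDX21: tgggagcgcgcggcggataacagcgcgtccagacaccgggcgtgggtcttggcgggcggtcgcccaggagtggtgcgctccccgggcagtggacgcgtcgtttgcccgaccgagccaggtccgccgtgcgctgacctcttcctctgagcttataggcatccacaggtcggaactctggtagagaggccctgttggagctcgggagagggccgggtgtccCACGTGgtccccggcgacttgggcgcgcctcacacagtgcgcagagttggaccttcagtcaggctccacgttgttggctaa
NME1: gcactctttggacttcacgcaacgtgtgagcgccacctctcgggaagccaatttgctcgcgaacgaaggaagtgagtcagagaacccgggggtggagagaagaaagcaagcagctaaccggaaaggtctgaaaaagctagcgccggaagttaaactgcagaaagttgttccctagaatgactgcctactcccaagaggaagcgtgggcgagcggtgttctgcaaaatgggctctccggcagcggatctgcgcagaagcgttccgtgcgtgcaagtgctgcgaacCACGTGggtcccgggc
NPM1: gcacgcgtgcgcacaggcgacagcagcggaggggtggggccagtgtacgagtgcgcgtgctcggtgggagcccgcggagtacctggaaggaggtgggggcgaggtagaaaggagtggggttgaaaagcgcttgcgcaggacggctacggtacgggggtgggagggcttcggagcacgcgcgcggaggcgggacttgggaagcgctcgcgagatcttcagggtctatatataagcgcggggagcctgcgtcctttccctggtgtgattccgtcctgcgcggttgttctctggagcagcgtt

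The E-box began at base 7 after the start in GNL3, counting the start as 1, and at base 35 in NME1. It lay before the start in NAT10, at -15, and in DDX21, at -31. The NPM1 window held 4 matches to the variant, which are not in capitals. These are not all separate sites, since cacgcgtg near the window's first base was counted on each strand. NOLC1, BOP1, NOP58, DDX18, RRP12, TCOF1 and RRP1B had no window.

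In Kelly at day 5, MYCN and 5 members fell with GSK126, and no member rose. MYCN (GRCh37, chr2:16080672-16087129) had 1901 and 1929 CPM with GSK126, against 2399 and 2616 CPM with DMSO. Both GSK126 libraries lay below both DMSO libraries, and the log2 fold change was -0.39 ± 0.08 (SE, n = 2 per group, edgeR quasi-likelihood adjusted p = 0.0001807), a level that fell by 23.7%. Of the 43 tested members, 5 were called lower at an adjusted p under 0.05, against 1.60% of all genes tested, and 0 were called higher, against 3.30%. At an unadjusted p under 0.05, 18 members were lower (7.13% of all genes) and 1 was higher (9.37%). The fitted change was below 0 for 35 of 43 members (48.2% of all genes), and the median log2 fold change was -0.21, against 0.01 over all genes. Both GSK126 libraries lay below both DMSO libraries for 23 members (22.5% of all genes) and above them for 2 (24.3%). Members were chosen with earlier results of these libraries known, so these counts describe the list and do not test it. In bulk RNA, fewer cells of a type and less RNA per cell cannot be told apart, and CPM is a share of the library, so a change shared by all genes would not be seen.

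**Figure D1:**
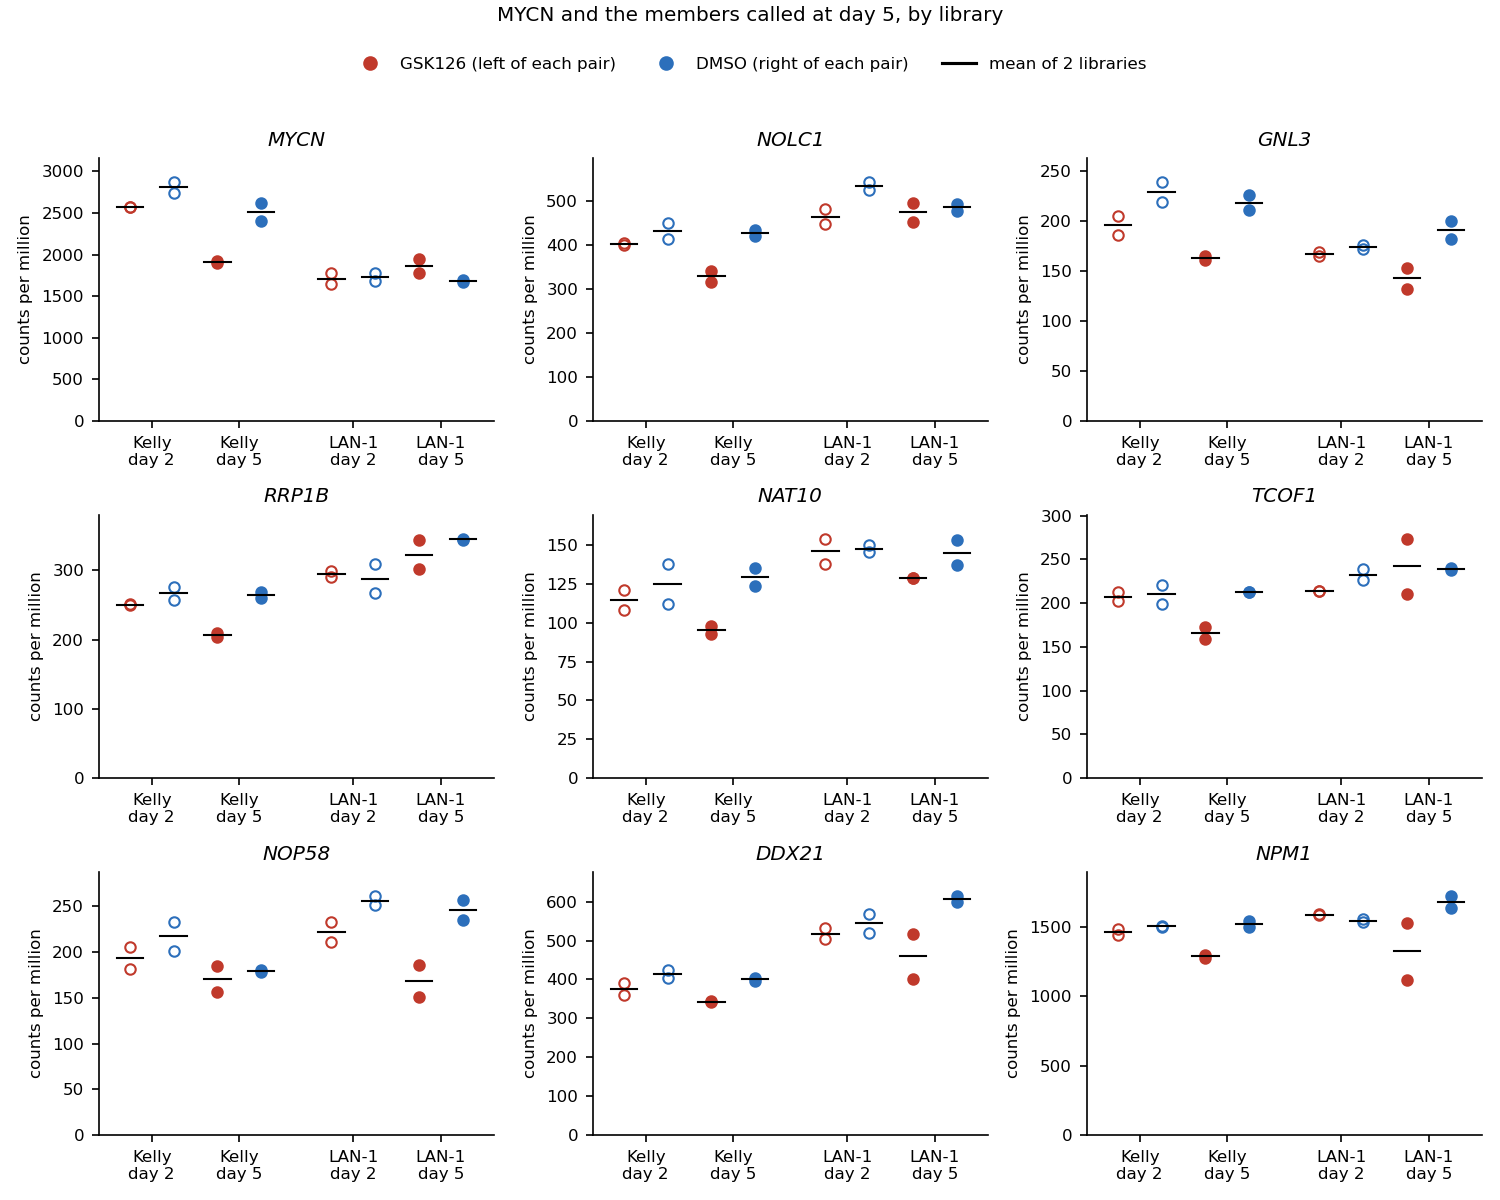
Level in CPM (linear axis from 0) of MYCN and of the 8 members called at day 5 in either line. Each point is 1 library, red for GSK126 on the left of a pair and blue for DMSO on the right, open for day 2 and filled for day 5, and the black line is the mean of 2 libraries. In Kelly at day 5 the GSK126 points of NOLC1, GNL3, RRP1B, NAT10 and TCOF1 lie below the DMSO points.

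The 5 members came from 4 steps of ribosome production. NOLC1, a chaperone that escorts snoRNPs in the nucleolus (GRCh37, chr10:103911933-103923628, plus strand), had 340.2 and 316.2 CPM with GSK126, against 420.0 and 434.1 CPM with DMSO (log2 fold change -0.38 ± 0.09, edgeR adjusted p = 0.004415). GNL3, the nucleolar GTPase nucleostemin (chr3:52715172-52728513, plus strand), had 164.8 and 161.2 CPM with GSK126, against 225.7 and 211.0 CPM with DMSO (-0.42 ± 0.11, adjusted p = 0.01189). For both genes the duplicates lay close together and the groups were apart. RRP1B, a nucleolar protein of large subunit processing (chr21:45079441-45115960, plus strand), had 209.0 and 203.2 CPM with GSK126, against 269.0 and 259.6 CPM with DMSO (-0.36 ± 0.11, adjusted p = 0.02753). NAT10, which acetylates small subunit ribosomal RNA (chr11:34127164-34169217, plus strand), had 92.6 and 97.8 CPM with GSK126, against 123.3 and 135.0 CPM with DMSO (-0.44 ± 0.14, adjusted p = 0.03633). TCOF1, the polymerase I cofactor treacle (chr5:149737192-149779871, plus strand), had 173.0 and 158.9 CPM with GSK126, against 213.0 and 212.8 CPM with DMSO (-0.36 ± 0.11, adjusted p = 0.04514). The GSK126 libraries of all 5 genes lay below the DMSO libraries, by 22.0% for RRP1B to 26.4% for NAT10 in the fitted level.

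In all 16 fits that left out 1 library, the log2 fold changes of these 5 genes lay between -0.50 and -0.30. The number of calls changed when a group was left with 1 library, whose spread is then taken from the other groups. TCOF1 lost its call also in many fits that left out a library outside this comparison. These were the fits without either library of Kelly GSK126 day 2, LAN-1 GSK126 day 2, LAN-1 DMSO day 2 or LAN-1 DMSO day 5. The other called members kept their calls in those fits. Without Kelly DMSO replicate 2 of day 5, 0 members were called. Without DMSO replicate 1 or GSK126 replicate 1 of that day only NOLC1 was, and without GSK126 replicate 2 only NOC4L. Without either LAN-1 GSK126 library of day 5, which enter only through the shared spread, 8 were called, and so were 8 without LAN-1 GSK126 replicate 2 of day 5 and Kelly DMSO replicate 1 of day 2 together, a choice made after seeing the data. DESeq2 called NOLC1 alone, and scaling by library totals only left GNL3 and NOLC1. With GC content taken out, also chosen after seeing the data, 10 were called. Except for DESeq2, the number of all genes called in these fits is not given here, so larger counts have no background. MYCN kept its call in all 16 fits that left out 1 library, with an adjusted p of at most 0.0488.

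Among polymerase I genes, 5 of 6 had a fitted change below 0 in Kelly at day 5, and TCOF1 was called. The catalytic subunits POLR1A and POLR1B stood at -0.17 ± 0.16 and -0.11 ± 0.18, and POLR1C, a subunit shared with polymerase III, at -0.13 ± 0.24. The initiation factor RRN3 stood at -0.06 ± 0.16, and UBTF, which binds the ribosomal RNA gene promoter, at 0.15 ± 0.11. None of these 5 values passed the test.

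Among the 7 snoRNP genes, 6 were below 0 and NOLC1 was called. FBL had 293.5 and 304.8 CPM with GSK126, against 362.5 and 364.1 CPM with DMSO (-0.28 ± 0.10, edgeR adjusted p = 0.08492). DKC1, the pseudouridine synthase of the H/ACA particles, stood at -0.28 ± 0.12. The C/D core proteins NOP56 and NOP58 stood at -0.19 ± 0.10 and -0.07 ± 0.12, and the H/ACA proteins NHP2 and GAR1 at -0.07 ± 0.14 and 0.12 ± 0.22. The libraries of FBL, DKC1 and NOP56 did not overlap between the groups, although none of the 3 passed the test. Of all genes tested, 22.5% were likewise lower with no overlap.

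Of 10 small subunit assembly genes, 8 were below 0 and NAT10 was called. NOC4L, a processome component, had a larger but noisier value, -0.55 ± 0.24, with 18.0 and 35.1 CPM with GSK126, against 42.6 and 36.5 CPM with DMSO. RRP9, a protein of the U3 particle, stood at -0.38 ± 0.18. The late factors NOB1, an endonuclease, and PNO1 stood at -0.21 ± 0.19 and -0.21 ± 0.23, and the export factor RRP12 at -0.16 ± 0.14. The other processome proteins stood nearer to 0, HEATR1 at -0.09 ± 0.10, WDR43 at -0.06 ± 0.11, UTP20 at 0.03 ± 0.12 and WDR3 at 0.04 ± 0.11.

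Of 9 tested large subunit assembly genes, 7 were below 0 and GNL3 and RRP1B were called. The 3 proteins of the PeBoW complex did not share a direction: BOP1 stood at -0.56 ± 0.33, PES1 at -0.26 ± 0.12 and WDR12 at 0.21 ± 0.14. NOC2L stood at -0.23 ± 0.10, the ribosomal RNA methyltransferase NOP2 at -0.21 ± 0.14 and NOP16 at -0.04 ± 0.22. The RNA helicase DDX18 stood at 0.19 ± 0.14. None of these 7 passed the test.

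Of 6 abundant nucleolar proteins and regulators, 5 were below 0 and 0 were called. NCL had 1751 and 1802 CPM with GSK126, against 2087 and 2069 CPM with DMSO (-0.23 ± 0.08, edgeR adjusted p = 0.07772). NPM1 had 1299 and 1279 CPM with GSK126, against 1542 and 1498 CPM with DMSO (-0.24 ± 0.08, adjusted p = 0.08299). In both genes the groups did not overlap, as in 22.5% of all genes in the lower direction, and neither passed the test over all genes. NPM3, a relative of NPM1, stood at -0.55 ± 0.28, the polymerase I regulator MYBBP1A at -0.30 ± 0.14, the RNA helicase DDX21 at -0.22 ± 0.10 and LYAR at 0.01 ± 0.31.

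Of the 5 tested targets outside the nucleolus, 4 were below 0 and 0 were called. EIF4E, the cap-binding protein of translation, had 35.2 and 28.3 CPM with GSK126, against 53.1 and 44.4 CPM with DMSO (-0.61 ± 0.21, edgeR adjusted p = 0.07348). NME1, a nucleoside diphosphate kinase, had 216.4 and 187.1 CPM with GSK126, against 239.9 and 242.6 CPM with DMSO (-0.26 ± 0.11, adjusted p = 0.1782). Both genes were lower in each GSK126 library than in each DMSO library, as were 22.5% of all genes. ODC1 of polyamine synthesis stood at -0.16 ± 0.09, CAD of pyrimidine synthesis at -0.12 ± 0.10, and TFRC, the transferrin receptor, at 0.18 ± 0.09.

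**Figure D2:**
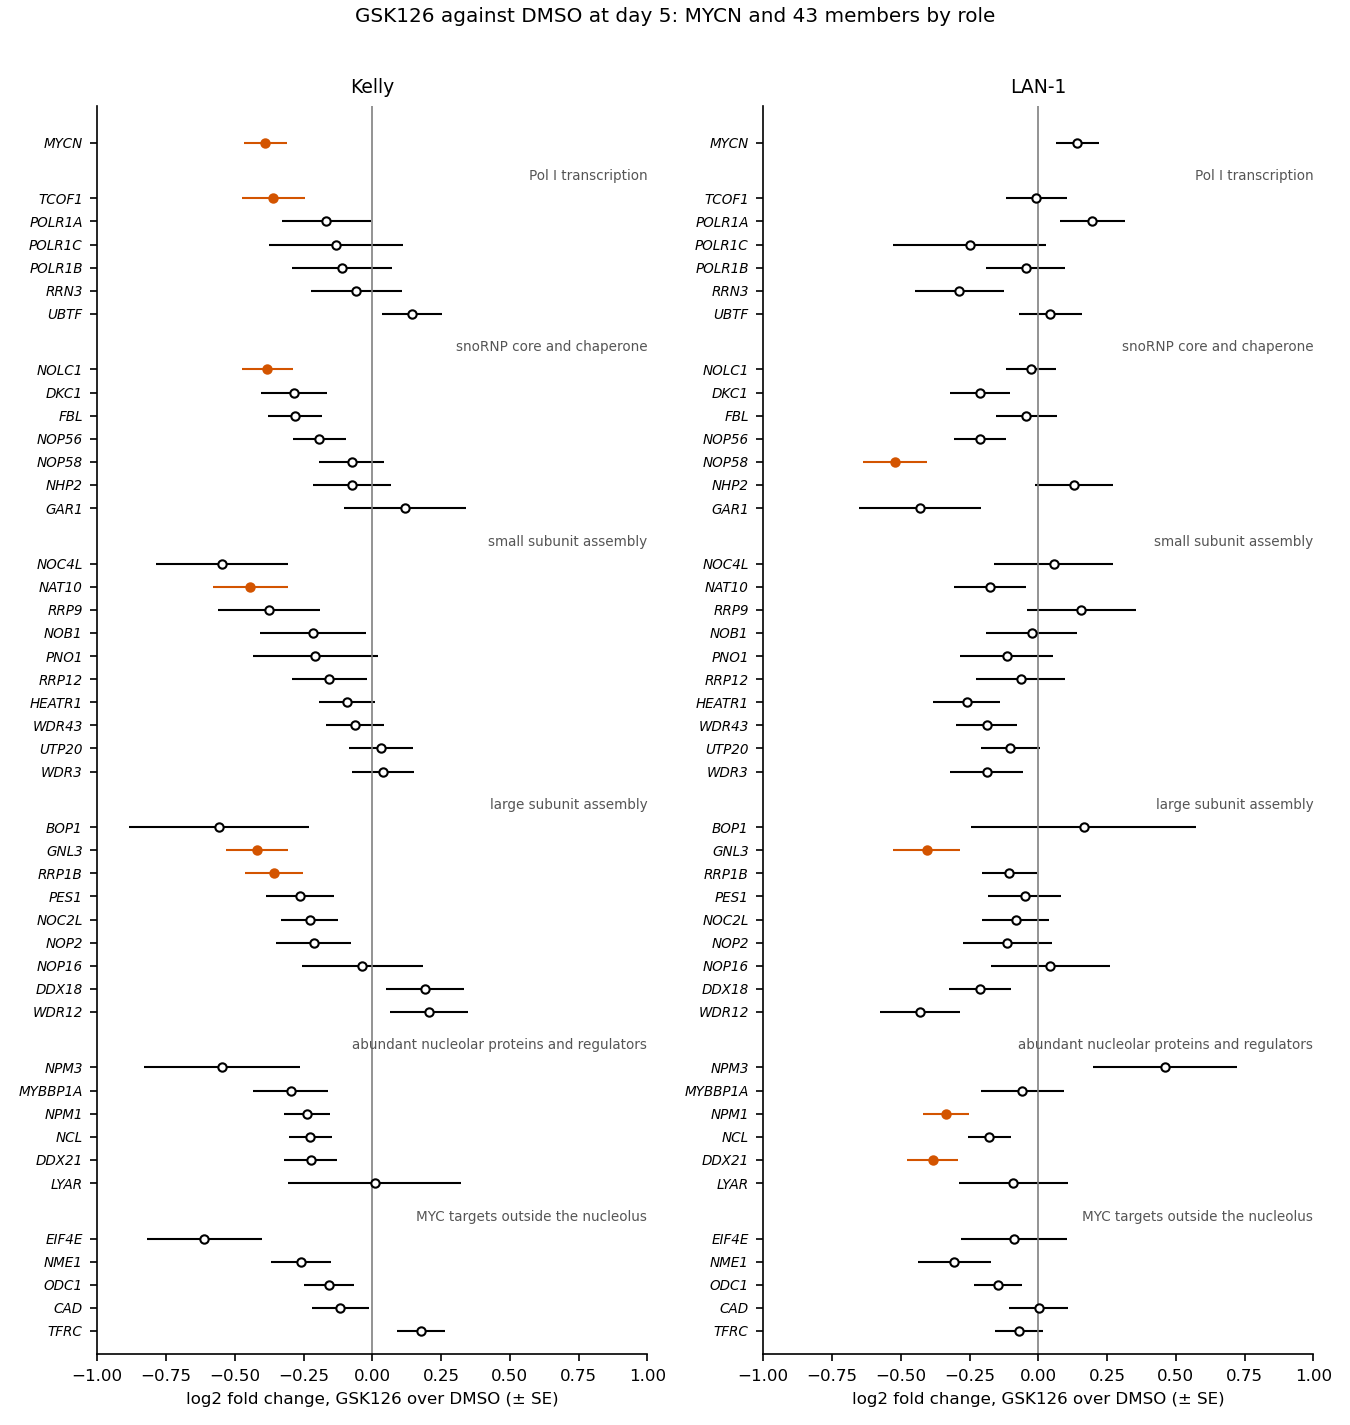
Log2 fold change of GSK126 over DMSO at day 5 with its standard error, for MYCN and the 43 tested members grouped by role, in Kelly (left) and LAN-1 (right). Filled orange points were called at an adjusted p under 0.05 (MYCN and 5 members in Kelly, 4 members in LAN-1), and GNL3 is the only member filled in both panels.

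In LAN-1 at day 5, 4 members fell with GSK126 while MYCN was not called. MYCN had 1775 and 1943 CPM with GSK126, against 1695 and 1670 CPM with DMSO (0.14 ± 0.08, edgeR adjusted p = 0.3616). NOP58 (GRCh37, chr2:203130459-203168384, plus strand) had 186.1 and 151.0 CPM with GSK126, against 235.4 and 257.2 CPM with DMSO (-0.52 ± 0.12, adjusted p = 0.00209). DDX21 (chr10:70715891-70744824, plus strand) had 517.7 and 401.1 CPM with GSK126, against 614.9 and 598.3 CPM with DMSO (-0.38 ± 0.09, adjusted p = 0.004787). The GSK126 duplicates of DDX21 stood further apart than its DMSO duplicates, with replicate 2 the lower. NPM1 (chr5:170814120-170838814, plus strand) had 1531 and 1115 CPM with GSK126, against 1636 and 1724 CPM with DMSO (-0.33 ± 0.08, adjusted p = 0.007499). GNL3 had 153.2 and 132.2 CPM with GSK126, against 199.9 and 181.5 CPM with DMSO (-0.41 ± 0.12, adjusted p = 0.03744). In all 4 genes the lowest library of the 4 was GSK126 replicate 2.

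The 4 called lower compare with 1.21% of all genes, and 0 members were called higher, against 2.45%. The fitted change was below 0 for 34 of 43 members (49.2% of all genes), with a median of -0.10 against 0 over all genes. The libraries did not overlap for 18 members that were lower (21.5% of all genes) and 4 that were higher (22.6%). Without GSK126 replicate 2, 0 members were called, and the log2 fold change was -0.13 ± 0.08 for NPM1 (edgeR adjusted p = 0.5745), -0.23 ± 0.10 for DDX21, -0.32 ± 0.14 for GNL3 and -0.40 ± 0.13 for NOP58. Without GSK126 replicate 1 these values were -0.59 ± 0.09 for NPM1, -0.60 ± 0.11 for DDX21, -0.53 ± 0.16 for GNL3 and -0.70 ± 0.15 for NOP58. GNL3 was not called by DESeq2, with no filter on low counts or from the LAN-1 libraries alone. Without DMSO replicate 1 only NOP58 was called, and without DMSO replicate 2 only DDX21. The 2 GSK126 libraries differed from each other along the GC content of transcripts (Pearson r = -0.3093 across 11017 genes, which are not replicates). So did the Kelly DMSO duplicates of day 2 (-0.2905) and, less strongly, LAN-1 DMSO of day 2 (0.2311) and Kelly GSK126 of day 5 (0.185). The other pairs lay between -0.1176 and 0.0855. Such a correlation does not by itself say which library of a pair stands apart. With GC content taken out, an alternative chosen after seeing the data, 3 members were called, NOP56, NOP58 and NPM1.

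At day 2 no member was called in either line. In Kelly the count of 0 compares with 0.177% of all genes called in either direction, and 3 members were lower (2.91% of all genes) and 1 higher (4.57%) at an unadjusted edgeR p under 0.05. In LAN-1 the background was 0.152%, and 5 members were lower (2.82%) and 0 higher (3.41%) at that threshold. DESeq2 also called 0 members in both. The median was -0.08 in Kelly, with 32 of 43 below 0 (48.5% of all genes), and -0.09 in LAN-1, with 29 below 0 (49.0%), against 0.01 and 0 over all genes. The smallest p-values in Kelly belonged to EIF4E, with 53.3 and 51.0 CPM with GSK126, against 37.7 and 36.5 CPM with DMSO (0.49 ± 0.19, edgeR adjusted p = 0.4847), to UBTF (-0.25 ± 0.10, adjusted p = 0.5228) and to GAR1 (-0.44 ± 0.21, adjusted p = 0.6309). In LAN-1 they belonged to UTP20 (-0.25 ± 0.10, adjusted p = 0.6912), NOLC1 (-0.20 ± 0.09, adjusted p = 0.749) and CAD (-0.23 ± 0.11, adjusted p = 0.7606). MYCN stood at -0.13 ± 0.08 in Kelly (edgeR adjusted p = 0.7414) and at -0.02 ± 0.08 in LAN-1.

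Averaged over both lines and both days, 7 members fell with GSK126, against 2.16% of all genes called lower. They were GNL3 (-0.28 ± 0.06, edgeR adjusted p = 0.0003639), DDX21 (-0.21 ± 0.05, adjusted p = 0.001261), NOP58 (-0.24 ± 0.06, adjusted p = 0.002382), NOLC1 (-0.18 ± 0.05, adjusted p = 0.005232), NCL (-0.14 ± 0.04, adjusted p = 0.01121), NPM1 (-0.14 ± 0.04, adjusted p = 0.01757) and NME1 (-0.19 ± 0.06, adjusted p = 0.0298). No member was called higher, against 4.32% of all genes. The average covers unlike values: NPM1 in LAN-1 at day 2 had 1590 and 1583 CPM with GSK126, against 1555 and 1538 CPM with DMSO. NOLC1 in LAN-1 at day 5 overlapped, with 495.3 and 451.8 CPM with GSK126, against 477.7 and 492.4 CPM with DMSO. Apart from NPM1, the called members were below 0 in each single comparison. The average was below 0 for 39 of 43 members (49.3% of all genes), with a median of -0.12, against 0.003 over all genes. GNL3, DDX21, NOP58, NOLC1 and NCL kept the call in each of the 16 fits that left out 1 library. NPM1 lost it without Kelly GSK126 replicate 1 of day 2, LAN-1 DMSO replicate 2 of day 5 or LAN-1 GSK126 replicate 2 of day 5, and NME1 kept it in 8 of the 16. With GC content taken out, an alternative chosen after seeing the data, 13 members were called. DESeq2 called 5, without NPM1 and NME1, and library totals only gave 6, without NME1. MYCN was not called in this average (-0.10 ± 0.04, adjusted p = 0.1219), except without LAN-1 GSK126 replicate 2 of day 5.

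Across the 4 comparisons of GSK126 with DMSO, which share no library, 13 of 43 members were below 0 every time (30.2%, against 9.36% of all genes) and 0 were above 0 every time, as 1262 of the 11863 genes were. The 13 were DDX21, GNL3, HEATR1, NAT10, NCL, NME1, NOLC1, NOP2, NOP58, ODC1, POLR1B, TCOF1 and WDR43. The summed CPM of the members was expressed in percent of the library. It was 0.954% and 0.951% in Kelly with GSK126 at day 5, against 1.06% and 1.09% with DMSO, and 1.13% and 1.02% in LAN-1 with GSK126 at day 5, against 1.20% and 1.22% with DMSO. At day 2 it was 1.08% and 1.07% in Kelly with GSK126, against 1.12% and 1.15% with DMSO, and 1.15% in both LAN-1 libraries with GSK126, against 1.20% in both with DMSO. In each of the 4 comparisons both GSK126 libraries held the smaller sum. NCL and NPM1, with the highest CPM of the members, weigh most in these sums.

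**Figure D3:**
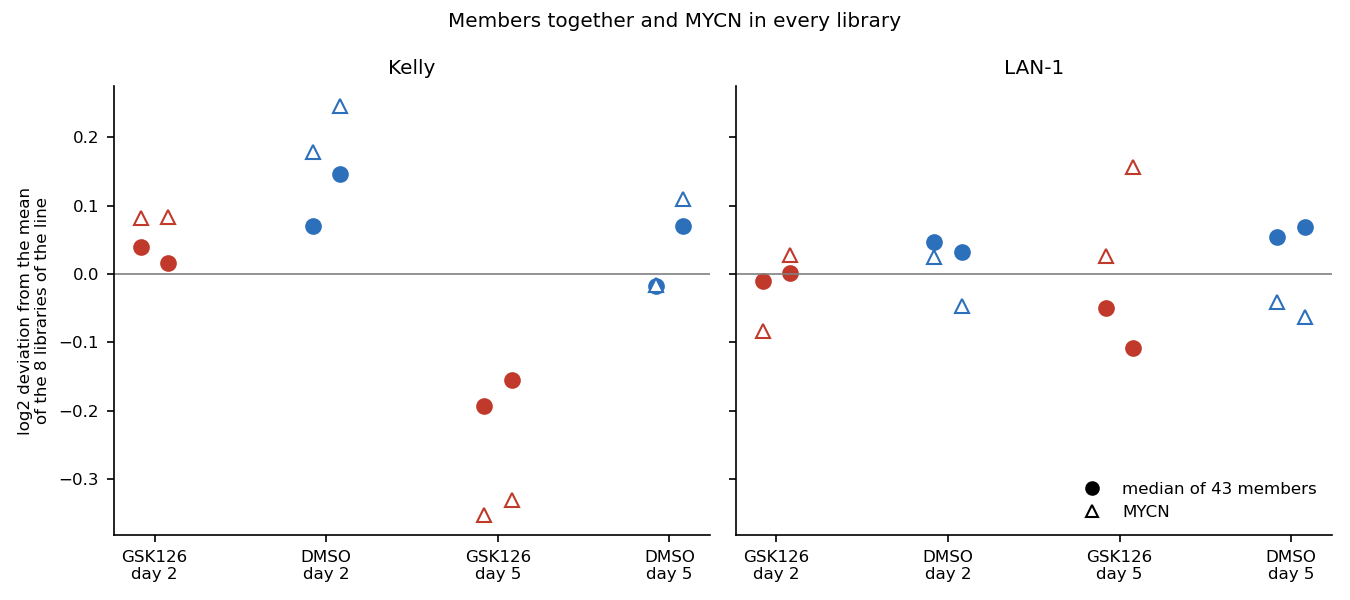
Log2 deviation of each library from the mean of the 8 libraries of its line, as the median over the 43 tested members (filled circles) and for MYCN (open triangles), red for GSK126 and blue for DMSO. In Kelly at day 5 with GSK126 the members' medians are -0.19 and -0.16 and MYCN stands at -0.35 and -0.33, while in LAN-1 at day 5 with GSK126 the medians are -0.05 and -0.11 and MYCN stands at 0.03 and 0.16.

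The difference between the lines in the day 5 effect was tested in itself. For MYCN it was called (Kelly minus LAN-1, -0.53 ± 0.11, edgeR adjusted p = 0.001178). Among the members 0 were called, against 1.85% of all genes, and DESeq2 called 0 as well. At an unadjusted p under 0.05, 4 members were higher (6.37% of all genes) and 3 lower (6.68%). The smallest p-values belonged to WDR12 (0.64 ± 0.20, adjusted p = 0.08213), NOLC1 (-0.35 ± 0.13, adjusted p = 0.1727) and NOP58 (0.45 ± 0.17, adjusted p = 0.1759). For GNL3, called by edgeR in both lines and by DESeq2 in neither, the difference was -0.01 ± 0.17. Without LAN-1 GSK126 replicate 1 of day 5, NOP58, NPM1 and TCOF1 were called, and without LAN-1 GSK126 replicate 2 of day 5 and Kelly DMSO replicate 1 of day 2 together, NOLC1 was. No member was thus shown to differ between the lines in the fit with all libraries.

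The change in the Kelly effect between the days was called for EIF4E alone among the members (day 5 minus day 2, -1.11 ± 0.28, edgeR adjusted p = 0.04618), against 0.379% of all genes. Its GSK126 libraries were above the DMSO libraries at day 2 and below them at day 5. The call was kept in 4 of 16 fits that left out 1 library, and it was lost without any single Kelly library, with an adjusted p up to 0.3989. MYCN was not called (-0.26 ± 0.11, adjusted p = 0.5078).

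Markers of other cell types and of the tumour cells were set beside the day 5 values. Of 6 fibroblast and mesenchyme markers, 4 were above 0 in both Kelly libraries with GSK126 and COL1A2 was at 0. Their summed level was 261.2 to 267.2 CPM in Kelly with GSK126, against 99.7 to 111.4 CPM with DMSO, and 64.4 to 70.5 CPM in LAN-1 with GSK126, against 39.7 to 47.9 CPM with DMSO. The 4 Schwann cell and glial markers summed to 8.20 to 11.5 CPM in Kelly with GSK126, against 3.74 to 4.86 CPM with DMSO. Markers of blood, epithelium and endothelium summed to at most 2.29 CPM in any day 5 library. The 8 adrenergic neuroblastoma markers summed to 3078 to 3236 CPM in Kelly with GSK126, against 4366 to 4415 CPM with DMSO, and to 2111 to 2459 CPM in LAN-1 with GSK126, against 2247 to 2287 CPM with DMSO. The part of these markers in the members' values was not tested.

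Other factors of ribosome production, 130 tested genes outside the 45, had medians below 0 in all 4 comparisons of GSK126 with DMSO. In Kelly at day 5, 3 were called lower (2.31%, against 1.60% of all genes) and 0 higher (against 3.30%), with a median of -0.12. They were CIRH1A, a small subunit processome protein (-0.54 ± 0.13, edgeR adjusted p = 0.002432), the RNA helicase DDX24 (-0.40 ± 0.11, adjusted p = 0.009895) and PWP1 (-0.53 ± 0.17, adjusted p = 0.04102). In LAN-1 at day 5, 4 were called lower (3.08%, against 1.21% of all genes) and 0 higher (against 2.45%), with a median of -0.11, and these were CEBPZ (-0.50 ± 0.13), ESF1 (-0.48 ± 0.13), WDR75 (-0.55 ± 0.16) and RSL1D1 (-0.33 ± 0.10), with adjusted p from 0.009021 to 0.02841. All 4 were lowest in GSK126 replicate 2, and without that library 1 of the 130 was called, with a median of -0.08. DESeq2 called 1 lower in each line. Without either DMSO library of that day in LAN-1, or without Kelly DMSO replicate 2 of day 5 in Kelly, 0 were called. At day 2, 0 were called in either line by edgeR (0.177% of all genes in Kelly and 0.152% in LAN-1). At an unadjusted p under 0.05, 8 of the 130 were lower (2.91% of all genes) and 1 higher (4.57%) in Kelly. In LAN-1, 5 were lower (2.82%) and 1 higher (3.41%) at that threshold.

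The cytosolic ribosomal proteins, which end up in the ribosome itself, were called about as often as all genes in Kelly at day 5. Of 74 tested, 2 were called higher (2.70%, against 3.30% of all genes) and 0 lower (against 1.60%), RPL13A (0.59 ± 0.18, edgeR adjusted p = 0.03219) and RPL39 (0.73 ± 0.22, adjusted p = 0.03516), with a median of 0.02 that was -0.01 with no filter on low counts. DESeq2 called 0 of them. In LAN-1 at day 5, 6 were called higher (8.11%, against 2.45% of all genes) and 0 lower (against 1.21%), with a median of 0.12, among them RPL18, RPS19, RPS28, RPL13 and RPL28, between 0.36 and 0.49. All 5 were highest in GSK126 replicate 2. Without that library the median over the 74 was 0.04, and without GSK126 replicate 1 it was 0.20. Without DMSO replicate 1, 0 were called, and without DMSO replicate 2 or in DESeq2, 2. At day 2, 0 were called in either line by edgeR (0.177% of all genes in Kelly and 0.152% in LAN-1). Also at an unadjusted p under 0.05 there were 0, against 2.91% of all genes lower and 4.57% higher in Kelly. In LAN-1 these shares of all genes were 2.82% and 3.41%. Their processed pseudogenes make these counts uncertain in the same way as those of NPM1.

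**Figure D4:**
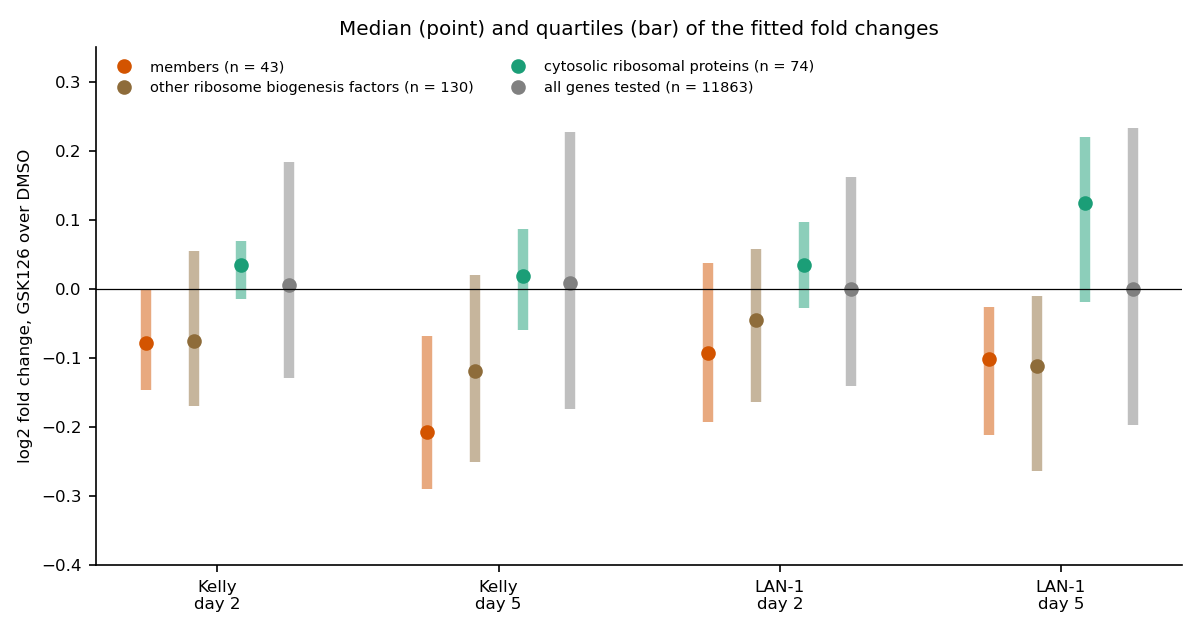
Median (point) and quartiles (bar) of the fitted log2 fold changes of GSK126 over DMSO in each line and day, for the 43 members, 130 other ribosome biogenesis factors, 74 cytosolic ribosomal proteins and all 11863 genes tested. The members' median lies below 0 in all 4 comparisons and lowest in Kelly at day 5 (-0.21).

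Members with CACGTG in a promoter window and those without it were set side by side with no test. In Kelly at day 5 the median log2 fold change was -0.24 over the 16 tested members with it, -0.12 over 20 without it and -0.36 over the 7 with no window. In LAN-1 at day 5 the medians were -0.11, -0.08 and -0.06. The 2 called members with the E-box in Kelly were GNL3 and NAT10, and the other 3 had no window.

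Culture time in DMSO moved no member past the test. In Kelly, day 5 minus day 2, 0 members were called, against 0.438% of all genes, with 7 lower (3.38%) and 0 higher (4.32%) at an unadjusted edgeR p under 0.05. UBTF had 216.0 and 237.1 CPM at day 5, against 292.0 and 298.0 CPM at day 2 (-0.38 ± 0.11, adjusted p = 0.07768). ODC1 stood at -0.28 ± 0.09 (adjusted p = 0.1873) and WDR3 at -0.29 ± 0.11 (adjusted p = 0.3878). UBTF was called without either LAN-1 GSK126 library of day 5, while DESeq2 called 0 members. In LAN-1, 0 were called by edgeR or DESeq2, also against 0.438%, with 1 lower (3.91%) and 1 higher (3.44%) at an unadjusted p under 0.05. The smallest p-values there belonged to RRP1B (0.26 ± 0.10, adjusted p = 0.3928), POLR1A (-0.30 ± 0.11, adjusted p = 0.3928) and DDX21 (0.16 ± 0.09, adjusted p = 0.7714). MYCN stood at -0.16 ± 0.08 in Kelly and at -0.04 ± 0.08 in LAN-1, and neither was called.

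Between the lines the members were called about as often as all genes, 30 of 43 against 8034 of 11863. Over the DMSO libraries of both days, 12 members were called higher in Kelly than in LAN-1 (27.9%, against 34.2% of all genes). The members called lower were 18 (41.9%, against 33.5% of all genes). Ranked by p, the first were DDX18 (-1.47 ± 0.09, edgeR adjusted p = 1.148e-32) and POLR1A (-1.32 ± 0.09, adjusted p = 3.265e-26). DDX18 had 81.5 to 104.2 CPM in Kelly, against 242.0 to 292.0 CPM in LAN-1. POLR1A had 63.5 to 112.5 CPM in Kelly, against 201.3 to 261.3 CPM in LAN-1. LYAR, a zinc finger protein of the nucleolus, had the largest difference of the tested members, with 15.2 to 19.8 CPM in Kelly, against 51.5 to 67.2 CPM in LAN-1 (-1.76 ± 0.17). POLR1B (-0.94 ± 0.11), PNO1 (-0.91 ± 0.13), UTP20 (-0.59 ± 0.08), DKC1 (-0.57 ± 0.08) and DDX21 (-0.50 ± 0.06) were also lower in Kelly.

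Higher in Kelly were HEATR1 (0.75 ± 0.08), NOC2L (0.73 ± 0.08), NME1 (0.68 ± 0.08) and FBL (0.51 ± 0.07). HEATR1 had 268.3 to 322.5 CPM in Kelly, against 161.4 to 185.4 CPM in LAN-1. MYCN itself was higher in Kelly, at 2399 to 2874 CPM, against 1670 to 1774 CPM in LAN-1 (0.64 ± 0.05, edgeR adjusted p = 3.346e-20), while the members' median was -0.15, against 0.02 over all genes. NPM1, ODC1 and TFRC overlapped between the lines and were not called.

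**Figure D5:**
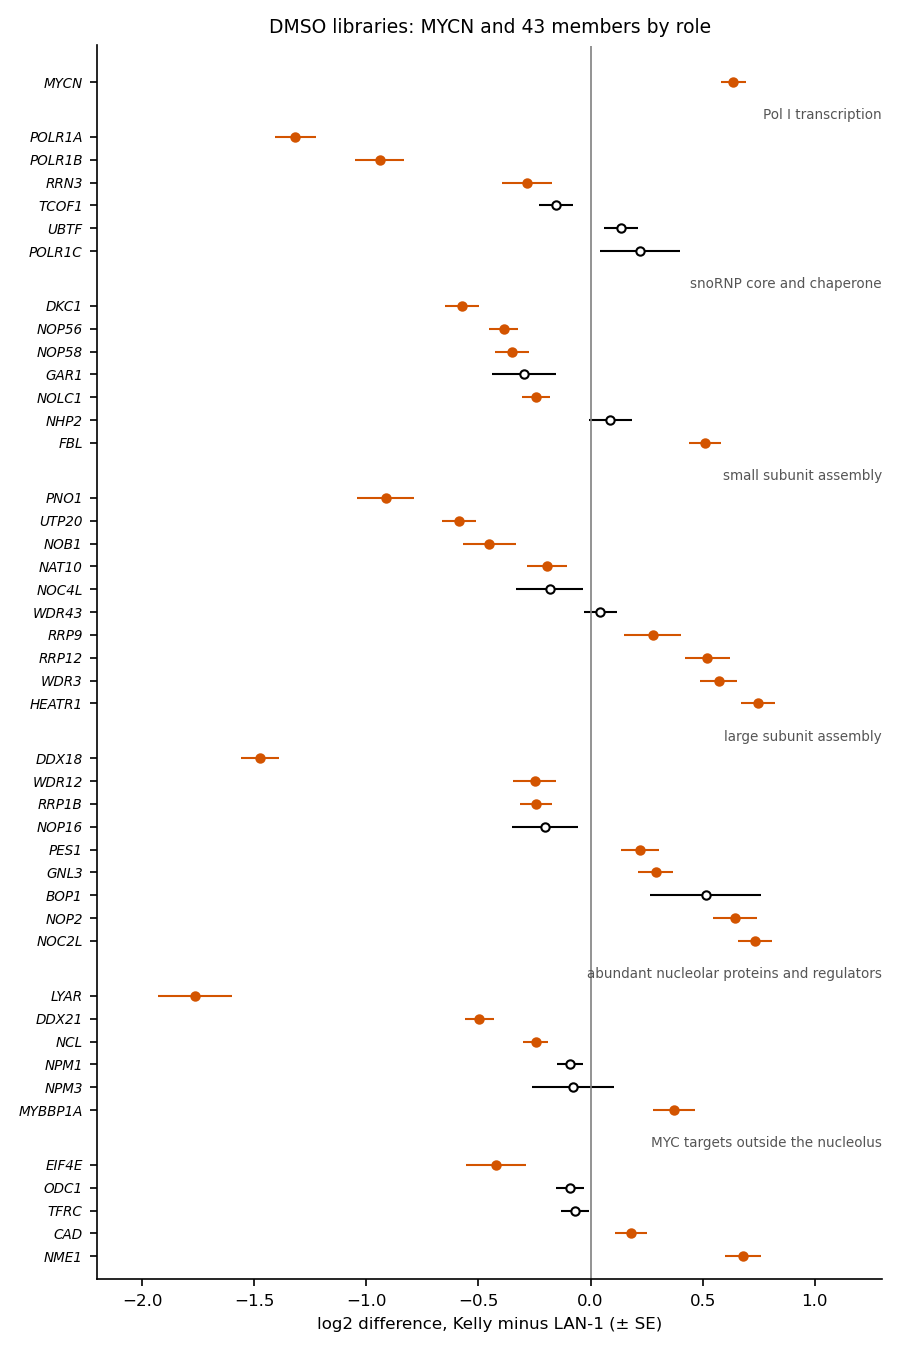
Log2 difference in DMSO between Kelly and LAN-1 (Kelly minus LAN-1, 4 libraries each, with standard error) for MYCN and the 43 tested members grouped by role. Filled orange points were called at an adjusted p under 0.05, with 12 members to the right of 0 and 18 to the left.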

How the data were processed

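The 16 libraries were grouped by the labels' cell line, treatment, time and replicate. Per the submitters' processing notes, the authors used FastQC, TopHat2 and featureCounts with GRCh37 (hg19), with no versions, and the deposited table holds raw counts for 25728 rows of gene symbols, 2 of which repeat a symbol. Annotation, strandedness and the rule for multi-mapping reads are not given in the sources used here, so reads of overlapping and antisense genes cannot be told apart.

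Genes were kept by edgeR's filterByExpr at a minimum count of 10, which left 11863. Libraries were scaled by TMM (factors 0.977 to 1.03). A quasi-likelihood model in edgeR 4.0.16 (R 4.3.3) gave each of the 8 groups a mean, with 8 residual degrees of freedom. Its common biological coefficient of variation stood at 5.31%. Benjamini-Hochberg adjustment ran over the 11863 tested genes, with calls under 0.05. Adjusted p-values are those of this edgeR fit unless DESeq2 1.42.0, an alternative, is named. At totals of 912095 to 1666190 counts, a median of 1394475.5, standard errors of members in Kelly at day 5 ran from 0.0782 (NCL) to 0.327 (BOP1) on the log2 scale. Precision covers counting and the spread of duplicates. The processing steps named above include no use of molecular identifiers.

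Positions came from GENCODE 44 on GRCh37. Member and list choices were made with earlier results of these data known. Named genes were MYCN, every member in Kelly at day 5 (with library values for called members and the 10 with the smallest p), up to 12 called members or else the 3 with the smallest p in each other comparison, up to 6 called genes of the 2 other lists in the GSK126 comparisons, the 3 highest and lowest per length, and members with CACGTG. Alternatives were other scalings, no filter, DESeq2, a replicate block, 1 line alone, and leaving out libraries. Values of some genes on these lists are not reported here.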

Additional observations from a re-analysis of the deposited data

Results flagged for a closer look

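EIF4E, which encodes the cap-binding protein of translation, had a GSK126 effect in Kelly that differed between the days by a test of the difference itself (day 5 minus day 2, log2 -1.105 ± 0.285, edgeR adjusted p = 0.04618, n = 2 libraries per group). It had 35.2 and 28.3 CPM with GSK126 at day 5, against 53.1 and 44.4 CPM with DMSO, and 53.3 and 51.0 CPM with GSK126 at day 2, against 37.7 and 36.5 CPM with DMSO. EIF4E has 5 numbered pseudogenes. The call was lost with upper-quartile scaling, with library totals only, in DESeq2 and without any single Kelly library, where the adjusted p reached 0.3989.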

How the results depend on the processing

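Counts of called members are given beside the main count. In Kelly at day 5 (5 members) library totals only gave 2 and DESeq2 1, GC content taken out 10, the 2 libraries that stand apart left out together 8, and leaving out 1 library 0 to 8. In LAN-1 at day 5 (4) leaving out these 2 libraries gave 0, and leaving out 1 library 0 to 5. In the mean effect (7) DESeq2 gave 5, library totals only 6, GC content taken out 13 and the 2 libraries left out 12, with 5 to 9 when 1 library was left out. In the line difference at day 5 (0) the 2 libraries left out gave 1, and 1 library left out 0 to 3. In the Kelly day difference (1) upper-quartile scaling, library totals only, DESeq2, the replicate block and the 2 libraries left out each gave 0, and 1 library left out 0 to 1. In Kelly DMSO over time (0) GC content taken out gave 2, and 1 library left out 0 to 1. The GC alternative and the pair of libraries (LAN-1 GSK126 day 5 replicate 2 and Kelly DMSO day 2 replicate 1) were chosen after seeing the data. These libraries are said to stand apart only as a label, since duplicates alone do not show which library of a pair differs. Both comparisons of GSK126 with DMSO at day 2 and LAN-1 DMSO over time had 0 called members under every setting run. With GC content taken out MYCN changed sign in LAN-1 at day 2 (0.0125, adjusted p = 0.9918) and in LAN-1 DMSO over time (0.01777, adjusted p = 0.9875). The cause of these changes was not tested. Over all genes, DESeq2 called 163 in Kelly and 154 in LAN-1 at day 5, against 581 and 434. Counts over all genes under the other settings are not given here, so a larger number of called members has no background beside it. Same-numbered libraries showed little shared deviation (28 correlations from -0.0876 to 0.1026, -0.033 between GSK126 and DMSO in Kelly at day 5). Most duplicates varied little more than counting alone, so these correlations cannot decide whether the numbers pair the samples. With the replicate block, 4 members were called in Kelly and 4 in LAN-1 at day 5, and 7 in the mean effect. Library totals limit BOP1, NPM3 and POLR1C, at 8 to 51 counts per library, more than the abundant members.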
